A study of Mus musculus with 3 samples.

Results

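The CXC chemokines described here are 9 genes, Cxcl1, Cxcl2, Cxcl3, Cxcl5, Cxcl9, Cxcl10, Cxcl11, Cxcl14 and Cxcl16, taken by symbol from the 55536 gene rows of the deposited tables, and all 9 were found. They were measured in ribosome-depleted total RNA of the cytosolic fraction of primary C57BL/6J mouse macrophages grown from bone marrow. Every library had the same history: 100 ng/ml Lipid A, the membrane anchor of bacterial lipopolysaccharide, for 12 h, a washout of 12 h, and a second exposure to 100 ng/ml Lipid A lasting 120 min. There is 1 group with 3 biological replicates and no library of unstimulated or once-stimulated cells, so levels are described within this group and nothing is said of a change caused by Lipid A. The replicates share 1 donor entry, that of the strain, the age and sex of the animals are not given, and p-values between libraries measure only the spread between these samples, which may be technical.

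CXC chemokines are small secreted proteins that steer leukocytes along a concentration gradient by binding G protein-coupled receptors. Members with a glutamate-leucine-arginine (ELR) motif before the first cysteines, here Cxcl1, Cxcl2, Cxcl3 and Cxcl5, bind CXCR2 and draw in neutrophils. Cxcl9, Cxcl10 and Cxcl11 lack that motif, bind CXCR3 and draw in T cells and natural killer cells. In macrophages NF-kappaB is known to drive the ELR ligands within minutes to hours of a Toll-like receptor signal, while the CXCR3 ligands also need interferon signalling. Cxcl16, a membrane-anchored ligand that binds CXCR6, can be shed and also takes up oxidised lipids, and Cxcl14, an epithelial chemokine, stand apart from both groups.

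Sequencing depth was 29376859 expected counts in replicate 1, 64822118 in replicate 2 and 37665844 in replicate 3. Levels are given in TPM, which is corrected for transcript length, and differences between libraries in log2 CPM, counts scaled to library size (here by the TMM method) and not to length. All 8 macrophage markers examined, Lyz2 and Csf1r among them, reached 1 TPM in every library, with a summed level of 4361.82 to 4611.11 TPM. None of the 6 fibroblast, 4 epithelial, 4 T and natural killer cell and 3 platelet markers did, while 2 of 7 neutrophil markers (S100a8 and S100a9) and 2 of 5 endothelial markers (Kdr and Vwf) did. The neutrophil markers summed to 3.63 to 7.66 TPM and the endothelial markers to 4.66 to 11.03 TPM. Lyz2, the largest part of the macrophage sum, stood at 2748.12, 2752.19 and 2752.94 TPM in replicates 1, 2 and 3. Some smaller macrophage markers moved more, so the steady sum does not mean that each marker was steady. Cd14 stood at 192.94, 336.84 and 152.85 TPM and Fcgr1 at 262.06, 131.40 and 155.20 TPM. Replicate 3 stood apart in Malat1, a nuclear noncoding RNA, at 952 TPM against 191 and 133 TPM in replicates 1 and 2. Its median share of a gene's TPM on transcripts with a retained intron was 3.06%, against 0.812% and 0.644%.

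The DNA just before the members' start sites shows which factor motifs each carries, and the 4 members printed are those with a kappaB-like motif. RefSeq promoter entries (GRCm38.p6) were matched for 6 of the 9 members. Capitals mark 3 kinds of motif searched on both strands: a kappaB-like GGGNNNTTCC, an interferon-stimulated response element (ISRE)-like GAAANNGAAA and an AP-1-like TGANTCA, which reads the same on both strands. These motifs were chosen after the promoters had been seen. Each sequence runs 5′ to 3′ on the gene's own strand and ends before the first transcribed base of the gene annotation.
Cxcl1 (chr5:90890995-90891240, plus strand): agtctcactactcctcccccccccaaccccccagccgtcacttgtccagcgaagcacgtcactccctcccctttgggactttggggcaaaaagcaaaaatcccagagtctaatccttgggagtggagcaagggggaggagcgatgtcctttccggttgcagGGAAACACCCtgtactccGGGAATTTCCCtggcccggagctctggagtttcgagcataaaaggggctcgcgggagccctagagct
Cxcl2 (chr5:90903649-90903870, plus strand): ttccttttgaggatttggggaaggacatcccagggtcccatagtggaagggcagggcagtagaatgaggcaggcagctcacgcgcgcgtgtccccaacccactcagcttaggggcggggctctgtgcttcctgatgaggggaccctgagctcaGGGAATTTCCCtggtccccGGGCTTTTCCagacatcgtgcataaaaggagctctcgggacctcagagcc
Cxcl3 (chr5:90785851-90786100, plus strand): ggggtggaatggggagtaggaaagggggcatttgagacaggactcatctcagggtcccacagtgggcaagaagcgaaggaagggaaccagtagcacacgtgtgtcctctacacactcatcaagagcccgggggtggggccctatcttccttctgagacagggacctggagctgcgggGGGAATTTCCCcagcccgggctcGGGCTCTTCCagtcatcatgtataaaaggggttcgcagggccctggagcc
Cxcl10 (chr5:92348890-92349139, minus strand): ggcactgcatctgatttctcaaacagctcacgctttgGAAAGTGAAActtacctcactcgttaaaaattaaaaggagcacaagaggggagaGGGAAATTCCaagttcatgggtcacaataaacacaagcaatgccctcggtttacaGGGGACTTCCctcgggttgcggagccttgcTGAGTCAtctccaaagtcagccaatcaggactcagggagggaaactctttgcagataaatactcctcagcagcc

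The 3 ELR promoters share the stretch GGGAATTTCCC, which begins 71, 97 and 73 bases before the RefSeq start of Cxcl1, Cxcl2 and Cxcl3. That stretch holds 2 overlapping matches of the kappaB-like motif, 1 on each strand. Each of the 3 promoters has another match nearby, beginning at position -89 in Cxcl1, -78 in Cxcl2 and -50 in Cxcl3. The Cxcl10 promoter differs in layout: an ISRE-like match begins at -213, kappaB-like matches begin at -159 and -104, and an AP-1-like match begins at -74. Over the 32851 promoters of the same table, 4.65% hold the kappaB-like motif in the 250 bases before the start, 2.98% the ISRE-like and 6.75% the AP-1-like motif. The Cxcl14 window has an ISRE-like match at -172, and the Cxcl9 window has none of the 3 letter strings. Cxcl5, Cxcl11 and Cxcl16 are named only. A match describes these letters and is not a measured binding site.

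**Figure D1:**
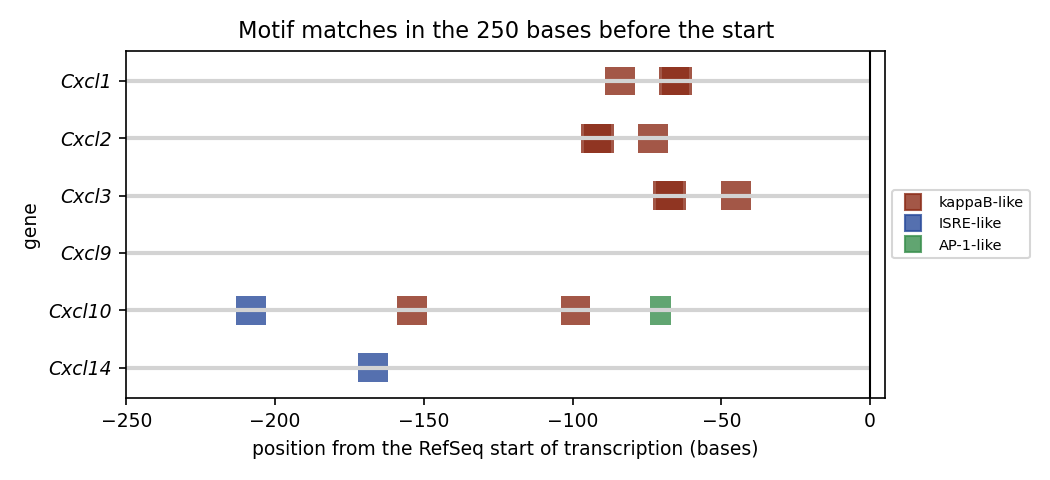
Positions of kappaB-like (red), ISRE-like (blue) and AP-1-like (green) motif matches in the 250 bases before the RefSeq start of the 6 members with an entry, in bases from the start at 0. The ELR ligands Cxcl1, Cxcl2 and Cxcl3 each have an overlapping pair (darker red) plus a single kappaB-like match within 100 bases of the start, whereas Cxcl10 has matches of all 3 kinds spread from -213 to -68.

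Among the ELR ligands, Cxcl2 was the highest. Cxcl2 (ENSMUSG00000058427.10, mm10 chromosome 5, 90903871 to 90905938, plus strand), known as macrophage inflammatory protein 2, stood at 85.08, 61.96 and 29.33 TPM in replicates 1, 2 and 3, a mean of 58.8 ± 28.0 (SD, n = 3). Replicate 3 was the low library, at less than either of the others. On the TMM-scaled CPM scale the highest library of Cxcl2 was 2.61-fold above the lowest, and 83.8% of the genes tested had a smaller range. Cxcl1 (ENSMUSG00000029380.11, chromosome 5, 90891241 to 90893115, plus strand), the keratinocyte-derived neutrophil attractant, stood at 18.62, 20.93 and 5.21 TPM, a mean of 14.9 ± 8.49 (SD, n = 3). Replicates 1 and 2 lay close together and replicate 3 far below them, with a 4.21-fold range in CPM.

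Cxcl3 and Cxcl5 were low. Cxcl3 (ENSMUSG00000029379.10, chromosome 5, 90786103 to 90789600, plus strand), a close relative of Cxcl2, stood at 1.04, 2.76 and 0.33 TPM from 38, 271 and 19 expected counts. Replicate 2 was the high library here and replicate 3 again the low one, and the 8.43-fold range in CPM was the widest of the 8 members tested. Cxcl5 (ENSMUSG00000029371.7, chromosome 5, 90759360 to 90761624, plus strand), a neutrophil attractant known from epithelial and stromal cells, had 0, 1 and 0 expected counts. It was not detectable at this depth: 3 counts, the limit that a count of 0 allows, would be 0.0435 TPM in replicate 1 and 0.0290 TPM in replicate 3. These limits, and the Poisson intervals given for Cxcl14, cover counting error only.

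Within the ELR ligands the proportions also differed between libraries. The Cxcl1 level was 21.9%, 33.8% and 17.8% of that of Cxcl2 in replicates 1, 2 and 3. The Cxcl3 level was 1.22%, 4.45% and 1.13% of that of Cxcl2. Replicate 2 was the highest library in both ratios, so its ELR ligands leaned more to Cxcl1 and Cxcl3. The leading Cxcl2 and Cxcl3 transcripts share 80 stretches of 31 bases, 7.41% and 8.11% of those in each, so that a part of their reads can be split between the pair by the counting. Cxcl1 shares none with another gene.

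The CXCR3 ligands were led by Cxcl10. Cxcl10 (ENSMUSG00000034855.13, chromosome 5, 92346638 to 92348889, minus strand), interferon-induced protein IP-10, stood at 1658.36, 680.01 and 664.13 TPM, a mean of 1000.8 ± 569 (SD, n = 3). That mean ranked 20 among the 22028 protein-coding genes. Replicate 1 was the high library and replicates 2 and 3 lay close together, with a 2.28-fold range in CPM from 66649, 72609 and 40121 expected counts. Cxcl9 (ENSMUSG00000029417.9, chromosome 5, 92321347 to 92328079, minus strand), a ligand known for its response to interferon-gamma, stood at 6.11, 3.38 and 2.35 TPM, a mean of 3.95 ± 1.94 (SD, n = 3). Replicate 1 was again the high library, and the range was 2.08-fold in CPM.

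Cxcl11 (ENSMUSG00000060183.6, chromosome 5, 92359544 to 92365485, minus strand) is annotated as a polymorphic pseudogene, and C57BL/6 mice are known to carry a frameshift in it that leaves no functional protein. Its RNA was nevertheless measured at 15.49, 2.70 and 2.54 TPM, a mean of 6.91 ± 7.43 (SD, n = 3), from 1146, 521 and 277 expected counts. Replicate 1 stood 5.66-fold above the lowest library in CPM, the widest range of the CXCR3 ligands, and its mean level is carried by that library. The Cxcl11 level was 0.934%, 0.397% and 0.382% of that of Cxcl10, so replicate 1 was higher in Cxcl11 by a larger factor than in Cxcl10. The Cxcl9 level was 0.368%, 0.497% and 0.354% of that of Cxcl10.

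Of the 2 members outside these groups, Cxcl16 (ENSMUSG00000018920.11, chromosome 11, 70453983 to 70459984, minus strand) stood at 109.68, 87.23 and 70.79 TPM, a mean of 89.2 ± 19.5 (SD, n = 3). It was the steadiest of the 8 members tested: its range was 1.32-fold in CPM, and 45.4% of the genes tested had a smaller one. Cxcl14 (ENSMUSG00000021508.11, chromosome 13, 56288643 to 56296551, minus strand) stood at 0.20, 0.08 and 0.06 TPM from 15, 15 and 5 expected counts. The 95% exact Poisson intervals of these counts, not scaled to depth, were 8.40 to 24.7 for 15 and 1.62 to 11.7 for 5, so the level is known only roughly.

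**Figure D2:**
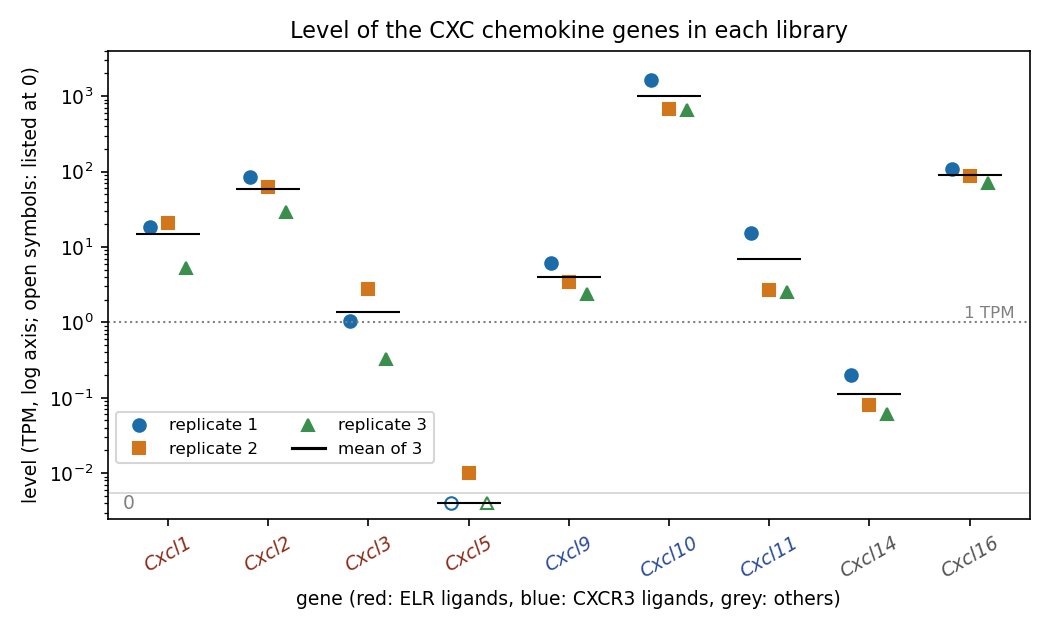
Level of each of the 9 CXC chemokine genes in the 3 libraries, in TPM on a log axis, with the mean of 3 as a black line. Open symbols mark libraries listed at 0, drawn at the foot of the axis, and the mean of Cxcl5 is drawn there too. The points of Cxcl10 lie between 664.13 and 1658.36 TPM, above those of every other member, and Cxcl5 and Cxcl14 lie below 1 TPM in all libraries.

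At 1 TPM or more in every library were 6 of the 9 members, against 39.1% of all protein-coding genes. Cxcl3 missed this level in replicate 3 only. In order of mean level the members were Cxcl10, Cxcl16, Cxcl2, Cxcl1, Cxcl11, Cxcl9, Cxcl3, Cxcl14 and Cxcl5. The ranges of Cxcl10 and Cxcl16 did not overlap, with Cxcl10 higher by 15.1-fold, 7.80-fold and 9.38-fold in replicates 1, 2 and 3. Cxcl16 and Cxcl2 overlapped in range but kept their order within each library, at ratios of 1.29, 1.41 and 2.41. Cxcl2 and Cxcl1 did not overlap, at ratios of 4.57, 2.96 and 5.63. From Cxcl1 down to Cxcl3 every neighbouring pair overlapped, and Cxcl11 and Cxcl9 changed places between libraries, Cxcl11 being the higher in 2 of 3.

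Summed by receptor group, the CXCR3 ligands stood at 1679.96, 686.09 and 669.02 TPM and the ELR ligands at 104.74, 85.66 and 34.87 TPM. The ratio of the sums was 16.0, 8.01 and 19.2, or 3.76 ± 0.67 (SD, n = 3) on the log2 scale. Replicate 2 had the smallest ratio, and the CXCR3 ligands were higher in 3 of 3 libraries, a number that allows no exact test to reach p = 0.05. Cxcl10 alone made up 87.5%, 79.2% and 85.7% of the summed TPM of the 9 members, 84.1 ± 4.41% (SD, n = 3). Cxcl2 made up 4.49%, 7.21% and 3.79%, and Cxcl16 made up 5.79%, 10.2% and 9.14%. So the summed chemokine level in each library is mainly that of Cxcl10, and the other 8 members together hold the rest.

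The libraries differed in these genes by more than counting error. Of the 9 members, 8 had enough counts for a chi-square test of each gene's counts against library size, with Benjamini-Hochberg adjustment over 14568 genes, and 8 of 8 passed at an adjusted p under 0.05. Of all genes tested, 71.6% passed, so the count by itself sets the members little apart. By the same chi-square test with Benjamini-Hochberg adjustment, the adjusted p was 1.1e-276 for Cxcl2, 3.96e-126 for Cxcl1, 7.64e-117 for Cxcl16, 1.41e-42 for Cxcl9, 3.36e-34 for Cxcl3 and 0.00947 for Cxcl14. It was too small for the software to hold for Cxcl10 and Cxcl11. Without replicate 1, 5 of 8 passed, and Cxcl9, Cxcl11 and Cxcl14 did not, at adjusted p of 0.137, 0.128 and 0.324 in the chi-square test. Over all genes, 8071 of 14514 passed without replicate 1. The median range between libraries was 1.62 on the log2 CPM scale over the 8 members and 0.44 over all genes tested.

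The lowest library was the same for every member tested, and the highest was not. Replicate 3 was the lowest library for 8 of 8 members tested, against 32.9% of all genes tested. That held under each of the 6 other scalings and quantifications tried, where 21.8% to 42.5% of all genes tested were lowest there. Cxcl14, with 15, 15 and 5 counts, passed the filter of 10 counts only through replicates 1 and 2, where it was higher. With 10 counts asked in every library, 7 members remained to be tested. Replicate 1 was the highest library for 6 of 8 members, against 31.3% of all genes tested, among them 3 of 3 CXCR3 ligands. In the second quantification it was the highest for 5 of 8 by TMM-scaled counts (29.3% of all genes tested) and for 4 of 8 by TPM (14.3%), where Cxcl2 and Cxcl16 were higher in replicate 2, and the CXCR3 ligands stayed at 3 of 3. By the deposited TPM it was the highest for 6 of 8, and for 50.3% of all genes tested. Cxcl1 and Cxcl3 were highest in replicate 2, as were 36.3% of all genes tested.

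Set against the mean of the other libraries on the log2 CPM scale, replicate 3 differed by -1.87 for Cxcl1, -1.28 for Cxcl2 and -2.25 for Cxcl3. The same difference was -0.62 for Cxcl9, -0.67 for Cxcl10 and -1.36 for Cxcl11, and -0.38 for Cxcl16. Replicate 1 differed by 0.97 for Cxcl9, 1.11 for Cxcl10 and 2.40 for Cxcl11, but by 0.62, 0.80 and -0.12 for Cxcl1, Cxcl2 and Cxcl3. Replicate 2 differed by 1.24, 0.48 and 2.37 for Cxcl1, Cxcl2 and Cxcl3 and by -0.36, -0.44 and -1.04 for Cxcl9, Cxcl10 and Cxcl11. It was the highest library for Cxcl1 and Cxcl3 and the middle one for Cxcl2 and the CXCR3 ligands. Its differences from the mean of the others had opposite signs in the receptor groups. Cxcl2, however, had the same order of libraries as the CXCR3 ligands, and its difference of 0.48 reflects how far replicate 3 lay below. The genes of a group were measured in the same libraries and lie next to each other, and the difference between groups was not tested.

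**Figure D3:**
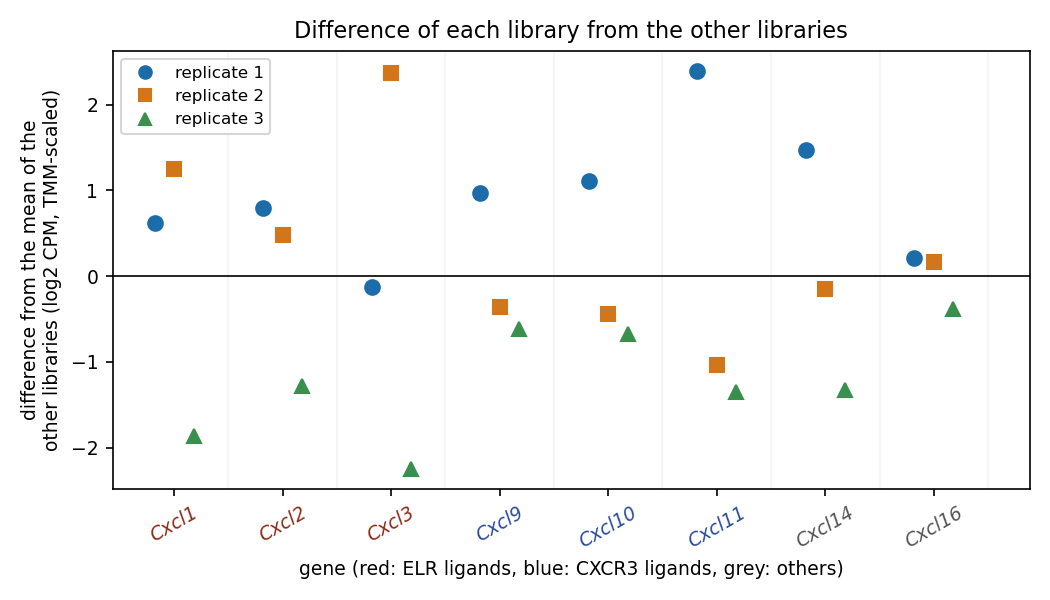
Difference of each library from the mean of the other libraries in log2 CPM after TMM scaling, for the 8 members with enough counts, 1 symbol per replicate. Replicate 3 (triangles) is below 0 for every member shown, from -0.38 for Cxcl16 to -2.25 for Cxcl3, while replicate 2 (squares) is above 0 for Cxcl1, Cxcl2 and Cxcl3 and below it for Cxcl9, Cxcl10 and Cxcl11.

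Several measures of the libraries moved with these differences. Replicate 3, the low library, had the high Malat1 level and the high retained-intron share given above. Replicate 1 had 32.5% of its TPM in protein-coding genes, against 26.5% and 27.1% in replicates 2 and 3. The endothelial markers summed to 11.03, 6.96 and 4.66 TPM. In TPM that order was shared by Cxcl2, Cxcl9, Cxcl10, Cxcl11, Cxcl14 and Cxcl16, so it is not particular to 1 receptor group. The largest parts of the sum were Kdr at 7.09, 3.24 and 2.29 TPM and Vwf at 2.95, 2.92 and 1.62 TPM. The other endothelial markers did not share that order. Pecam1 stood at 0.75, 0.51 and 0.63 TPM, Cdh5 at 0.24, 0.29 and 0.12 TPM, and Tie1 was listed at 0 in all libraries. The neutrophil markers summed to 7.66, 3.63 and 7.46 TPM. Most of this sum was S100a8 at 2.62, 1.48 and 2.14 TPM and S100a9 at 4.10, 1.90 and 4.44 TPM, while Ly6g stood at 0, 0.01 and 0 TPM. The part of these measures in the differences was not tested. Fewer cells that make a chemokine and less RNA per cell cannot be told apart in such bulk libraries.

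At the level of transcripts, most members were carried by 1 spliced messenger RNA. Its mean share of the gene's TPM was 99.3 ± 0.41% for Cxcl10-201, 98.4 ± 1.93% for Cxcl1-201, 98.9 ± 1.60% for Cxcl3-201 and 97.2 ± 2.10% for Cxcl2-201 (SD, n = 3 each). Cxcl11-201, annotated as protein-coding despite the frameshift named above, held 89.6 ± 0.63%. Cxcl11-202, annotated as a polymorphic pseudogene form, held the rest, at nearly the same share in each library. In Cxcl14, with 5 to 15 counts a library, the leading transcript was not stable.

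Cxcl16, the second highest member, had a sizeable alternative transcript. Cxcl16-202, annotated as a target of nonsense-mediated decay, the pathway that removes messages with an early stop codon, held 33.1%, 27.7% and 21.8% of the gene's TPM in replicates 1, 2 and 3. The second quantification gave 34.1%, 28.2% and 21.7%, the same order. The full-length coding form Cxcl16-201 held 64.7%, 70.6% and 75.4%. The level of the coding form was thus 70.93, 61.58 and 53.37 TPM, a narrower spread than that of the whole gene. Zmynd15, on the other strand, overlaps Cxcl16 by 552 bases, and 19.6% of the 31-base stretches of Cxcl16-201 lie in it too. Zmynd15 itself was listed at 3.27, 2.47 and 2.03 TPM, and whether the counting used strand is not given in the sources used here.

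Transcripts with a retained intron, which are often kept in the nucleus, are annotated for every member but Cxcl11 and Cxcl14. In the first quantification they took under 5% of the TPM of each of these members, except Cxcl9. For Cxcl1 the share was 0.752%, 0.287% and 3.84% in replicates 1, 2 and 3, and for Cxcl2 it was 1.32%, 1.58% and 4.26%. For Cxcl10 it was 0.346%, 0.301% and 0.887%. It was highest in replicate 3 for 5 members (Cxcl1, Cxcl2, Cxcl3, Cxcl10 and Cxcl16), as it was for 78.2% of 2446 protein-coding genes that have such a transcript and a mean of at least 10 TPM, a level that Cxcl3 does not reach. In TPM, the retained-intron forms of Cxcl2 stood at 1.12 and 0.98 in replicates 1 and 2 and slightly above both in replicate 3, where the gene as a whole stood lowest. Cxcl9 went the other way, at 12.9%, 29.3% and 0%, from a 370-base transcript with 5.50, 19.23 and 0 expected counts, and the second quantification gave 43.3%, 47.6% and 15.7%.

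The 3′ UTRs of the members, the untranslated ends of the messages, differ in AU-rich elements, to which proteins such as tristetraprolin bind and shorten a message's life. The pentamer ATTTA, written as DNA, occurs 11 times in the 3′ UTR of Cxcl2-201, 7 times in Cxcl1-201 and 5 times in Cxcl3-201. That is 15.0, 11.8 and 7.75 per kb, densities that 0.301%, 0.722% and 2.33% of 8311 expressed protein-coding genes reach. Cxcl5-201 holds 5, or 4.50 per kb. The CXCR3 ligands hold fewer: 2 in Cxcl10-201 (2.74 per kb, a density that 23.8% of genes reach), 3 in Cxcl9-201 and 1 in Cxcl11-201. Cxcl16-201 holds 2 and Cxcl14-201 none, and the median gene had 1.30 per kb. The longer nonamer TTATTTATT occurs 4 times in Cxcl2, 2 times in Cxcl1, 1 time in Cxcl3 and in no other member, and 6.7% of genes hold it. These counts describe the annotated sequence, the ELR ligands are related in sequence, and message stability was not measured.

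**Figure D4:**
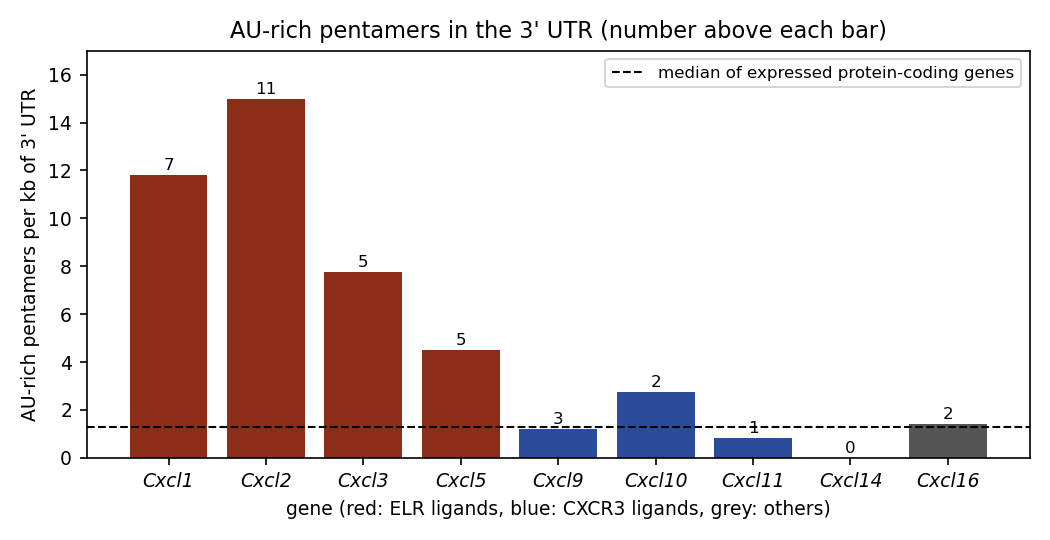
AU-rich pentamers per kb of 3′ UTR in the leading transcript of each of the 9 members (bars, with their number above), with the median of expressed protein-coding genes as a dashed line at 1.30 per kb. The ELR ligands (red) stand from 4.50 to 15.0 per kb, and the highest other member is Cxcl10 at 2.74 per kb.

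Of the 9 members, 7 lie in 2 clusters on chromosome 5 that are 1.42 Mb apart. The ELR cluster runs 147 kb from Cxcl5 to Cxcl2 and holds Cxcl5, Ppbp, Pf4, Cxcl3, Cxcl15, Cxcl1 and Cxcl2, all on the plus strand. Levels alternated along it. Pf4, platelet factor 4, which is made by megakaryocytes and also by macrophages, stood at 89.78, 79.16 and 55.61 TPM between Ppbp and Cxcl3, both far lower. Ppbp, the platelet ligand next to it, stood at 0.20, 0.05 and 0.12 TPM, and the 3 platelet markers summed to 0.08 to 0.09 TPM. Cxcl15, known from lung epithelium, was listed at 0 in all libraries, whereas Cxcl1 and Cxcl2 lie at the far end, and Pf4 was above both in every library.

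The CXCR3 ligand cluster spans 44.1 kb, with Cxcl9, Cxcl10 and Cxcl11 in that order on the minus strand. Cxcl10 in the middle stood far above either neighbour in every library, as the percentages above show. Art3, an ADP-ribosyltransferase gene on the plus strand, spans the whole of Cxcl10 and Cxcl11 and was listed at 0.23, 0.14 and 0.41 TPM. It shares 9.68% of the 31-base stretches of Cxcl10-201. Since strand use in the counting is not given in the sources used here, the reads of Art3 and of these ligands cannot be fully told apart. Sdad1, a ribosome biogenesis gene beyond Cxcl9, stood at 1.67, 2.46 and 2.02 TPM and was lowest in replicate 1, where Cxcl9 was highest.

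**Figure D5:**
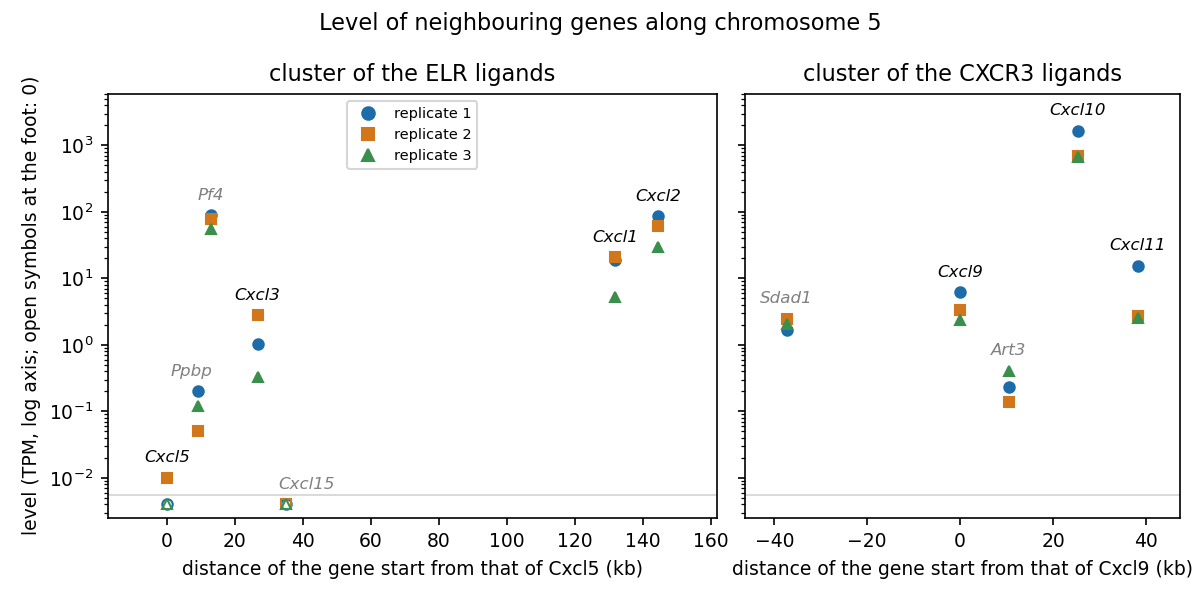
Level in TPM (log axis) of the genes in the ELR cluster (left) and the CXCR3 ligand cluster (right) against the distance in kb of the gene's leftmost base from that of Cxcl5 or Cxcl9, with members in black and other genes in grey, and open symbols at the foot for libraries listed at 0. Pf4 (55.61 to 89.78 TPM) stands above its neighbours Ppbp and Cxcl3, and Cxcl10 stands above both of its ligand neighbours in each library.

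The receptors for these ligands were at low levels in the same cells. Of 8 receptors, Cxcr4 and Cxcr3 reached 1 TPM in all libraries. Cxcr4, the receptor of Cxcl12, stood at 2.08, 1.87 and 1.43 TPM. Cxcr3, the receptor of Cxcl9, Cxcl10 and Cxcl11, stood at 1.35, 1.59 and 1.49 TPM, levels close together in the libraries where its ligands ranged from 669.02 to 1679.96 TPM in sum. Of 3 receptors with enough counts, 3 passed the chi-square test, against 71.6% of all genes tested, Cxcr3 at an adjusted p of 0.0200. Cxcr6, the receptor of Cxcl16, stood at 0.12, 0.02 and 0.36 TPM, from 9, 5 and 42 expected counts. Its highest library was replicate 3, the lowest for Cxcl16 and for every other member tested. Cxcr2, the receptor of the ELR ligands, was listed at 0 in all libraries, as were the atypical receptors Ackr1 and Ackr3, while Cxcr1 and Cxcr5 stayed at or below 0.04 TPM. The macrophages thus held RNA of ligands for CXCR2 without detectable Cxcr2 RNA.

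Of the 6 other CXC ligands, Pf4 alone reached 1 TPM in all libraries. Cxcl12, the stromal ligand, had 0, 5 and 0 expected counts, Cxcl17 had 1 count in replicate 3, and Cxcl13 and Cxcl15 were listed at 0. Of the 6 proteases that shed or trim CXC ligands, 4 reached 1 TPM in all libraries and 4 passed the chi-square test, against 71.6% of all genes tested. Adam17, a sheddase, stood at 32.5 ± 4.13 TPM and Adam10, which sheds Cxcl16, at 13.0 ± 1.04 TPM (SD, n = 3 each). Mmp12, the macrophage elastase that can trim ELR ligands, stood at 6.29, 13.23 and 1.93 TPM. Like Cxcl1 and Cxcl3, it was highest in replicate 2 and lowest in replicate 3.

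The list of 8 RNA-binding regulators of chemokine messages was detected in full, and 7 of 8 passed the chi-square test, against 71.6% of all genes tested. Zfp36, the gene of tristetraprolin, stood at 108.18, 50.43 and 49.02 TPM. Hnrnpd, which also binds AU-rich elements, stood at 43.8 ± 0.89 TPM, and Zc3h12a, the RNase regnase-1, at 39.8 ± 7.70 TPM (SD, n = 3 each). Replicate 1 was the highest library for 5 of the 8, Zfp36 among them, against 31.3% of all genes tested.

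Both signalling arms were detected in full, and 11 of 11 and 8 of 8 genes passed the chi-square test, against 71.6% of all genes tested. Of 11 genes of the interferon arm, replicate 1 was the highest library for 9, against 31.3% of all genes tested, and replicate 3 the lowest for 6, against 32.9%. Irf7, an interferon-induced transcription factor, stood at 931.93, 523.48 and 558.66 TPM, and Irf1 at 227.15, 141.49 and 121.38 TPM. Ifnb1, the gene of interferon-beta and the lowest of the 11 by mean level, stood at 17.77, 6.81 and 4.34 TPM. Replicate 1 was its high library, as for 6 of the 8 members tested, the CXCR3 ligands but also Cxcl2, Cxcl14 and Cxcl16. Of 8 genes of the NF-kappaB arm, replicate 1 was the highest for 3 and replicate 3 the lowest for 5. Nfkbia, the inhibitor that NF-kappaB itself induces, stood at 360.38, 263.53 and 234.36 TPM, Nfkbiz at 125.10, 103.11 and 72.26 TPM and Ikbke at 68.86, 50.26 and 91.02 TPM. Whether the arms differ from each other, or track the ligands, was not tested with 3 libraries.

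The genes most alike in pattern were found for the highest member of each group, among 3740 protein-coding genes with a mean of at least 10 TPM, by the Euclidean distance between log2 CPM departures from each gene's mean over 3 libraries. For Cxcl2 they were Il6, the gene of interleukin-6, at a distance of 0.189, Ptgs2, that of cyclooxygenase-2, at 0.206, and Tnfsf9, a costimulatory ligand, at 0.226. Il6 stood at 18.79, 15.48 and 7.34 TPM, with replicate 3 low as in Cxcl2. For Cxcl10 they were Fabp3, a fatty acid carrier, at 0.0573, Gpr141 at 0.0952 and Phf11a at 0.105. For Cxcl16 they were Ahnak at 0.0107, Mtss1 at 0.0108 and Sgms1 at 0.0127. Within a distance of 0.1 lay 149 genes for Cxcl16, 2 for Cxcl10 and 0 for Cxcl2. This number depends on the size of a gene's range, which was narrow for Cxcl16 and wide for Cxcl2. Over 3 libraries such a likeness is a description.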

How the data were processed

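The deposited gene table and first transcript table of each library hold expected counts and TPM of the authors, and the transcript table also a percent of each gene's abundance per transcript, per the file headers. A second deposited transcript table holds estimated counts and TPM made by the authors from the reads directly. It was summed per gene as the second quantification. The build is mm10 with annotation M21, per the deposited readme, and the aligner, the quantifiers and the strand setting: not given in the sources used here. Deposited TPM are taken over all rows. Of these, 26345 name no gene, held 0.168% to 0.350% of counts and were left out of library sizes, leaving 55536 gene rows.

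Expected counts were rounded and scaled by TMM (edgeR 4.0.16, R 4.3.3). Log2 CPM used a prior of 1 count. Genes that reached 10 counts in any library were tested between libraries by chi-square of homogeneity (scipy 1.17.1, Python 3.11.15), with Benjamini-Hochberg adjustment over all 14568. On simulated data with known answers, 70% of 50 genes set 1.5-fold apart in 1 library were called, as were 68% of 50 at 2-fold and 98% of 50 at 4-fold, against 0.0974% of 14368 unchanged ones. The simulated counts held Poisson counting error only, so these rates do not apply to real replicates, which also differ for other reasons. Alternatives were DESeq2 1.42.0 size factors, total counts, other filters and thresholds, a prior of 0.1, log2(TPM + 1), rescaled TPM, the second quantification and leaving out each library. The counts of members highest or lowest in a library, the retained-intron counts and their alternatives were added after seeing the data.

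The genes named are all 9 members, every receptor, the 3 highest genes of each ligand, protease, regulator and signalling list, and the 3 genes most alike in pattern to the highest member of each group. A gene that these rules pick is not reported here. Other named genes (Ifnb1, Malat1, the cell type markers and neighbours or overlapping genes of the members) were chosen after their values were seen. The members and lists were chosen with earlier results of these data known.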

Additional observations from a re-analysis of the deposited data

How the results depend on the processing

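No paired analysis was possible because the labels give 1 group only. With each library left out in turn, 5 to 8 of the 8 members passed the chi-square test, with 5 without replicate 1 and 8 without either other library, and the cause was not tested. Over all genes, 15788 of 19205 passed in the second quantification, against 10433 of 14568, and the cause was not tested. The share of Cxcl10 in the summed level of the 9 members was 75.0 ± 5.65% (SD, n = 3) when taken on TMM-scaled CPM without a length correction. The difference of Cxcl16 in replicate 2 from the other libraries reversed on log2(TPM + 1), to -0.015 from 0.17 on log2 CPM. Under every alternative run for them, the log2 ratio of CXCR3 to ELR ligands moved by less than its SD, and the numbers of members at the TPM threshold, highest in replicate 1 and lowest in replicate 3 stayed within 1.5 times. The level of single members depends on the scale: over 8612 genes, rescaling TPM over protein-coding and long noncoding genes moved the median by 1.77 on the log2 scale, and the second quantification by -1.02. The share of Cxcl9-201 was 85.9 ± 14.7% (SD, n = 3) and 64.5% in the second quantification, which puts more of Cxcl9 on the retained-intron form. Depth limits Cxcl3, Cxcl5 and Cxcl14, which had 271 counts or fewer in each library.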
